A study of Mus musculus with 6 samples.

Results

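Wnt5a, Dkk2, Frzb and Nkd1 encode 1 Wnt ligand, 2 secreted Wnt antagonists and 1 intracellular Wnt antagonist, and their RNA was measured in bone after an injection of growth hormone (GH). All deposited rows carrying 1 of these 4 symbols alone were taken, which gave 4 rows of 21446, 1 for each gene, and 4 genes of 8803 named genes tested. The genes were chosen by their log2 ratios on these same arrays, so their ratios are given as a description with no test. The mice were C57BL/6J-Ghrhr<lit> (lit/lit) animals 4 weeks old, which lack a working receptor for GH-releasing hormone and therefore make little GH of their own. They received 1 subcutaneous injection of GH at 4 mg/kg or of phosphate-buffered saline (PBS), and bone was taken 24 or 6 hours later. RNA of 2 animals was pooled per sample, and each GH pool, labelled with Cy5, was set against a PBS pool, labelled with Cy3, on a two-colour array. Replicates 4, 5 and 6 were the 3 arrays at 24 hours, and replicates 1, 2 and 3 were the 3 arrays at 6 hours. Both the GH and the PBS animals carried the lit/lit mutation, and no wild type was on these arrays. The labels name bone tissue without saying which bone or whether marrow was removed.

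Wnt proteins are secreted ligands that bind Frizzled receptors. In the canonical branch they act with the co-receptors Lrp5 and Lrp6 to keep beta-catenin from being degraded, and in bone this branch favours the formation and activity of osteoblasts. Wnt5a is the best known ligand of the non-canonical branch, which works through Ror1, Ror2 and Ryk receptors and planar polarity proteins; osteoblasts make it, and in mice it also acts on osteoclast precursors and on the ordering of growth plate chondrocytes. Dkk2 is a Dickkopf protein that binds Lrp5 and Lrp6, and mice without it have poorly mineralised bone. Frzb, also called sFRP3, is a decoy with a Frizzled-like domain that binds Wnts outside the cell and is made in cartilage. Nkd1, naked cuticle 1, binds Dishevelled inside the cell, and its gene is itself switched on by beta-catenin, so it works as a feedback inhibitor.

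The GH receptor is known to act on gene promoters through the transcription factor STAT5. Whether STAT5 acts on these 4 genes was not tested. Upstream windows are shown as a description for Frzb, Dkk2 and Nkd1, while none was matched for Wnt5a. Each sequence is the 250 bases just before the annotated start of the gene in RefSeq, build GRCm38.p6, read 5′ to 3′ on the gene's strand. Capitals mark matches to the motifs TTCNNNGAA (the STAT5-type GAS motif), CTTTGAT (the TCF/LEF core), TATAAA (the TATA box core) and GGGCGG (the GC box), searched on both strands; no 2 matches overlapped. Frzb lies at chr2:80447397-80447646 on the minus strand, Dkk2 at chr3:132085042-132085291 on the plus strand and Nkd1 at chr8:88527383-88527632 on the plus strand.
Frzb: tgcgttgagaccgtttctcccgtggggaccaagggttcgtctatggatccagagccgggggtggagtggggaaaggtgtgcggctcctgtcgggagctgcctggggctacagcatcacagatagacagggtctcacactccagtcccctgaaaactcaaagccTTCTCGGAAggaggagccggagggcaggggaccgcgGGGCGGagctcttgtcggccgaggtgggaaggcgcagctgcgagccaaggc
Dkk2: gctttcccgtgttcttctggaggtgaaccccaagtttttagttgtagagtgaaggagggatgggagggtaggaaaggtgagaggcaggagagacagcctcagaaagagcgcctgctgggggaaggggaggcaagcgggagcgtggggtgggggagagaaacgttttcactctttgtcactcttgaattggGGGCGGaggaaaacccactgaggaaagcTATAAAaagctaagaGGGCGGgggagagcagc
Nkd1: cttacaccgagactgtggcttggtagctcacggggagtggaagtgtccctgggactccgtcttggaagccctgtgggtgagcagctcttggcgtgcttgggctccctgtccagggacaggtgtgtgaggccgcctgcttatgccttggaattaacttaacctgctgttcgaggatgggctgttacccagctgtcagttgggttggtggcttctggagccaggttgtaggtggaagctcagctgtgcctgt
The Frzb window held 1 GAS match, TTCTCGGAA, 87 to 79 bases before the start, and 1 GC box 51 to 46 bases before it. The Dkk2 window held a TATA core 32 to 27 bases before the start and GC boxes 60 to 55 and 17 to 12 bases before it. The Nkd1 window held none of the 4 motifs, and CTTTGAT was in none of the 3. Over 32851 mouse windows of the same length, 7.0% held the GAS motif, 3.2% CTTTGAT, 12.4% TATAAA and 32.7% the GC box. The GC content was 64.4% for Frzb, 55.6% for Dkk2 and 58.4% for Nkd1. A match describes these letters and is not evidence of a bound site.

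Which gene a row measured rests on the platform annotation alone. Over 2059 genes with several rows, the first 2 rows of a gene had the same sign for 50.6% and a Pearson r of 0.03 across genes, so rows given 1 symbol did not bear each other out. Wnt5a, Dkk2, Frzb and Nkd1 have 1 row each, and their gene names could not be checked in this way. Each value below is a log2 ratio, likely GH over PBS, so that 1 stands for a doubling with GH and -1 for a halving. The deposited values do not state the direction, which rests on the dyes and their order in the labels. No array had the dyes swapped, so a dye effect of a gene and an effect of GH cannot be told apart at either time. A sign shared by both times does not separate them either. Below, higher or lower with GH, rose and fell name the sign of the ratio only. A ratio gives no level, so neither the abundance of these RNAs nor the order of their abundances can be read from it. The pooled animals were separate, so the spread between arrays holds both animals and technique. At an adjusted p under 0.05 by limma, 20.6% of the 16678 features were called at 24 hours, 12.0% as higher and 8.62% as lower with GH. The share called at 6 hours was 3.62%, made up of 2.91% higher and 0.702% lower. All 4 genes passed at 24 hours, and Wnt5a and Dkk2 passed at 6 hours; these are the contrasts that chose them and nothing is read from the counts. Both the 24-hour and the 6-hour counts rested on single arrays: without replicate 6 no feature passed at 24 hours (limma put 4124 below an unadjusted p of 0.05). At 6 hours no feature passed when replicate 2, 3 or 4 was left out (limma put 1923, 2018 and 3883 below an unadjusted p of 0.05). Replicate 1 stood apart, with an SD over all values of 0.47 against 0.68 to 0.91 on the other arrays and correlations of 0.23 to 0.36 with them, where the other pairs had 0.56 to 0.82.

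Wnt5a RNA was higher with GH on every array, about 2-fold at both times. Its log2 ratios were 1.00, 0.87 and 1.20 on the 24-hour arrays (replicates 4, 5 and 6), against 0.61, 1.25 and 0.84 on the 6-hour arrays (replicates 1, 2 and 3). Replicate 2 was the highest and replicate 1 the lowest of the 6, and the times overlapped. The mean was 1.02 ± 0.17 at 24 hours and 0.90 ± 0.32 at 6 hours (SD, n = 3 each), which is 2.03-fold and 1.87-fold. The 24-hour mean minus the 6-hour mean was 0.12 ± 0.22 (SE of limma), less than its own error. Wnt5a kept nearly the same place within each array, between the 90.6th and the 95.7th percentile of all features. Its residual SD around the means of the 2 times was 0.26, against a median of 0.30 over the 15131 features with a value on all 6 arrays.

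Dkk2 had the highest mean ratio of the 4 genes at both times and the widest spread. Its log2 ratios were 0.86, 1.30 and 2.08 on the 24-hour arrays, against 1.48, 2.27 and 0.95 on the 6-hour arrays. Replicates 2 and 6 were above 2 and replicates 3 and 4 below 1, so each time held both high and low arrays and the times overlapped. The mean was 1.42 ± 0.62 at 24 hours and 1.57 ± 0.66 at 6 hours (SD, n = 3 each), or 2.67-fold and 2.96-fold. The difference between the times was -0.15 ± 0.43 (SE). The residual SD of 0.64 was larger than that of 87.6% of complete features. The mean of Dkk2 stood at the 99.4th percentile of all features at 6 hours. On replicate 1, where most features had small ratios, Dkk2 stood at the 99.6th percentile.

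Frzb RNA was lower with GH on all 6 arrays. Its log2 ratios were -0.69, -0.71 and -1.12 on the 24-hour arrays, against -0.22, -0.60 and -0.81 on the 6-hour arrays. Replicate 6 was the lowest and replicate 1 lay closest to 0; replicate 3, at 6 hours, was lower than replicates 4 and 5, so the times overlapped. The mean was -0.84 ± 0.24 at 24 hours and -0.54 ± 0.30 at 6 hours (SD, n = 3 each), which is 1.79-fold and 1.46-fold lower with GH. The difference between the times was -0.30 ± 0.23 (SE). The spread of Frzb was close to that of Wnt5a, with a residual SD of 0.27.

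Nkd1 RNA was lower with GH on all 6 arrays and showed the largest difference between the times among the 4 genes. Its log2 ratios were -1.03, -1.79 and -1.79 on the 24-hour arrays, against -0.17, -1.25 and -0.89 on the 6-hour arrays. Replicates 5 and 6 lay below every 6-hour array, while replicate 4 lay between replicates 2 and 3, so the times overlapped. The mean was -1.53 ± 0.44 at 24 hours and -0.77 ± 0.55 at 6 hours (SD, n = 3 each), which is 2.90-fold and 1.70-fold lower with GH. The difference between the times was -0.76 ± 0.35 (SE), and without replicate 1, the array with the value closest to 0, it was -0.46. The 24-hour mean was lower than that of all but 348 of 16678 features.

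**Figure D1:**
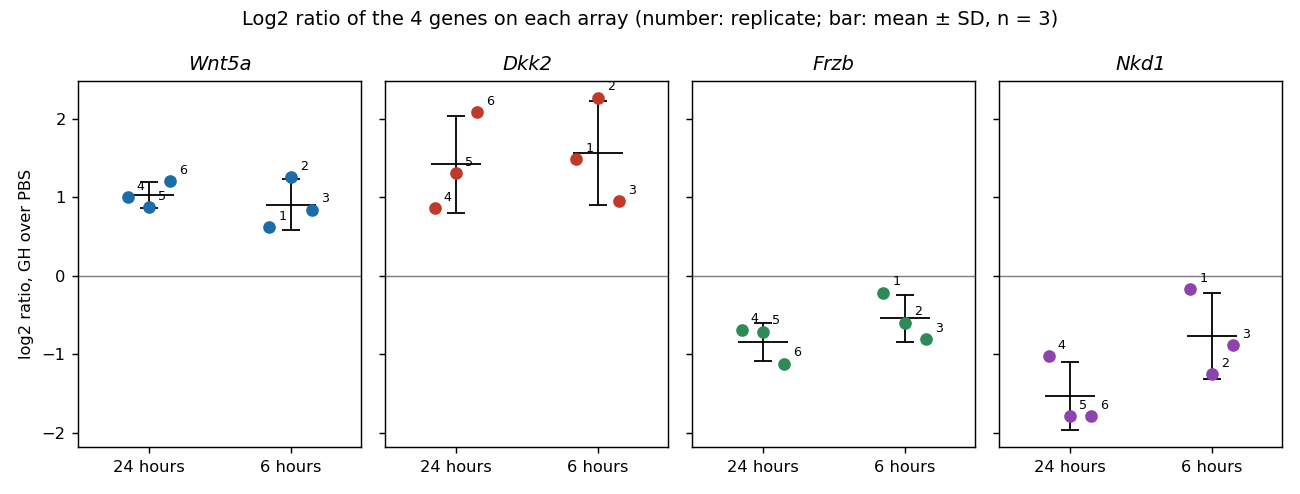
Log2 ratio, likely GH over PBS, of Wnt5a, Dkk2, Frzb and Nkd1 on each of the 6 arrays, with 24 hours left of 6 hours; points are arrays and bars are the mean and SD of 3 arrays. Wnt5a and Dkk2 lie above 0 and Frzb and Nkd1 below 0 on every array, and the 2 times overlap for each gene.

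Among the antagonists, the Dickkopf gene and the other 2 thus had ratios of opposite sign. Wnt5a and Dkk2 were above 0 on 6 of 6 arrays and Frzb and Nkd1 on 0 of 6; 33.5% of complete features had 1 sign on all 6 arrays. The order from high to low was Dkk2, Wnt5a, Frzb and Nkd1 on 4 arrays. On replicate 4 Wnt5a was above Dkk2 by 0.14, and on replicate 1 Nkd1 was above Frzb by 0.05. The distance from the highest to the lowest of the 4 genes ran from 2.03 (replicate 4) over 3.09 (replicate 5) to 3.87 (replicate 6) at 24 hours, against 1.70 (replicate 1), 3.52 (replicate 2) and 1.84 (replicate 3) at 6 hours. Within the same array, the size of the Frzb ratio minus that of the Nkd1 ratio was -0.34, -1.07 and -0.67 at 24 hours, against 0.05, -0.65 and -0.08 at 6 hours, so the ratio of Nkd1 was the lower on 5 of 6 arrays. The Wnt5a ratio minus the Dkk2 ratio was 0.14, -0.43 and -0.88 at 24 hours, against -0.87, -1.02 and -0.11 at 6 hours, so Dkk2 was above Wnt5a on 5 of 6 arrays. The size of both gaps varied widely between arrays, and the ranges of Dkk2 and Wnt5a overlapped at both times, as did those of Frzb and Nkd1.

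**Figure D2:**
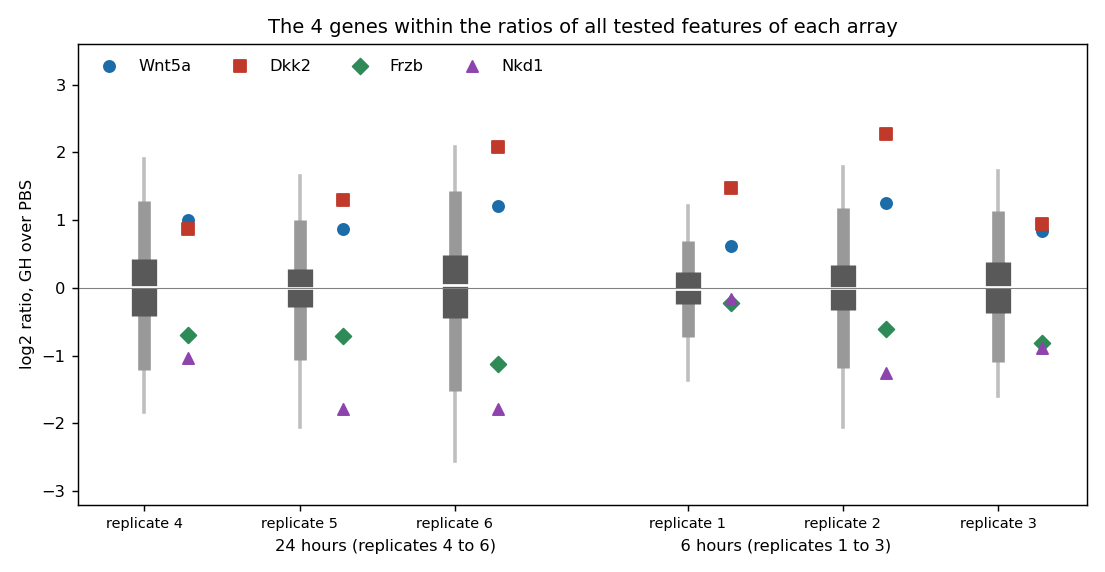
Log2 ratio, likely GH over PBS, of the 4 genes on each array (symbols) beside the spread of all tested features of that array, drawn as grey bars for the middle 50, 90 and 98% of features with a white line at the median; 24 hours is left of 6 hours. The bars are shortest on replicate 1, where Dkk2 lies above the 98% bar while Frzb and Nkd1 lie close to 0.

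The difference between the times was not called for any feature (0.0% of 16678, 506 at an unadjusted p under 0.05 in limma). The mean ratios of Wnt5a, Frzb and Nkd1 were larger in size at 24 hours, as were those of 65.5% of all features, and that of Dkk2 was larger at 6 hours. Leaving out replicate 1 brought the 6-hour means to 1.05 for Wnt5a, 1.61 for Dkk2, -0.71 for Frzb and -1.07 for Nkd1. With replicate 5 as the only 24-hour array, the 1 that shares its scan file prefix with the 6-hour arrays, the ratios were 0.87, 1.30, -0.71 and -1.79.

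The other genes of the pathway were taken from role lists, of which 68 of 123 genes besides the 4 were measured under a single symbol. At 24 hours 6 were higher and 5 lower with GH, which is 16.2% of the 68, against 20.6% of all features. At 6 hours 1 was higher and 1 lower (2.9%, against 3.62%), and between the times none was called (limma put 1, Tnfrsf11b, below an unadjusted p of 0.05). The median log2 ratio of the 68 was 0.12 at 24 hours and 0.13 at 6 hours, beside 0.00 and -0.02 over all features. No gene of the 68 passed at 24 hours without replicate 6 (limma put 21 below an unadjusted p of 0.05); 5, 3, 2 and 4 passed without replicate 2, 3, 4 and 5, and 16 without replicate 1. At 6 hours none passed without replicate 2, 3, 4 or 6 (limma put 6, 7, 17 and 15 below an unadjusted p of 0.05), and 4 passed without replicate 1. With the arrays scaled to 1 spread, the 24-hour calls of Ror1, Vangl2, Daam1 and Nlk held and the other 7 missed the threshold; quantile normalization also kept Rspo2.

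Among the ligands, none of 6 measured besides Wnt5a passed at either time. Wnt5b, the closest relative of Wnt5a, had 0.66 ± 0.22 at 24 hours (SE, limma adjusted p = 0.0772) and 0.45 at 6 hours. Wnt9b had 0.58, Wnt6 0.28 and Wnt2 0.14 at 24 hours, and Wnt7a, the one ligand with a negative mean there, had -0.55 (limma adjusted p = 0.105). The secretion genes did not pass either: Wls, which carries Wnt proteins to the cell surface, had -0.79 ± 0.23 (0.0555), and Porcn, which attaches their lipid, had 0.30. The Wls value is a mean of rows at -0.86, -1.31 and -0.19.

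Among 8 receptors and co-receptors, Ror1 rose at both times, and it was the only 1 to pass. That is 12.5% at each time, against 20.6% of all features at 24 hours and 3.62% at 6 hours. Ror1, a receptor tyrosine kinase that binds Wnt5a, had log2 ratios of 1.91, 1.34 and 1.94 on the 24-hour arrays, against 0.79, 1.25 and 1.58 on the 6-hour arrays. All 6 were above 0, and replicate 1 was the lowest. The mean was 1.73 ± 0.19 at 24 hours (SE, 3.33-fold, limma adjusted p = 0.00839) and 1.21 ± 0.19 at 6 hours (2.31-fold, 0.0381). Without replicate 6 the 24-hour call was missed (1.63, adjusted p = 0.0581), and without replicate 2, 3, 4 or 6 the 6-hour call (adjusted p = 0.221, 0.193, 0.0640 and 0.0610). The other non-canonical receptors Ryk (0.64, 0.0524), Ptk7 (0.59, 0.0502) and Ror2 (0.32, 0.211), and the Frizzled gene Fzd3 (0.49, 0.175), had positive 24-hour means that did not pass in limma (adjusted p in brackets). At 6 hours all 8 receptor genes had means above 0, as did 48.19% of all features.

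Of the secreted antagonists besides Dkk2 and Frzb, 3 of 15 listed were measured and none passed at either time. Dkk1, which like Dkk2 binds Lrp5 and Lrp6, had 1.00 ± 0.32 at 24 hours (SE, limma adjusted p = 0.0695) and 0.41 at 6 hours. Its 2 rows differed: row 1 averaged 0.09 and row 2 1.91 at 24 hours, and row 2 alone ranged from -0.40 (replicate 2) to 3.40 (replicate 5). Dkk3 had 0.31 (0.292) and Wif1, which binds Wnts directly, 0.13 (0.513) at 24 hours. The paralogs Dkk4, Sfrp1, Sfrp2, Sfrp4 and Sfrp5 were not analysed here.

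R-spondins strengthen Wnt signals by removing the ubiquitin ligases that clear Frizzled receptors. Of 4 genes of that system measured, 3 fell at 24 hours, where 8.62% of all features were called lower, and none passed at 6 hours. All 3 calls missed the threshold with the arrays scaled to 1 spread (adjusted p = 0.0520 for Rspo2, 0.0737 for Lgr4 and 0.0534 for Znrf3). Rspo2, the ligand, had -0.71, -1.51 and -1.56 on the 24-hour arrays, against -0.43, -1.06 and 0.36 on the 6-hour arrays. Replicate 3 was the only array above 0. The means were -1.26 ± 0.29 at 24 hours (SE, limma adjusted p = 0.0316) and -0.38 at 6 hours (0.435). Its receptor gene Lgr4 had -0.69 ± 0.18 (0.0418) at 24 hours and -0.38 at 6 hours. Znrf3, the ligase, had -0.42 ± 0.10 (0.0385), a mean of rows at 0.26 and -1.09. Rspo3 had 0.29 (0.349) at 24 hours.

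Among 14 intracellular regulators besides Nkd1, Csnk1a1 rose at 24 hours, which is 7.1%, against 20.6% of all features. None passed at 6 hours. Csnk1a1, a kinase that takes part in marking beta-catenin for degradation, had 0.66 ± 0.16 (SE, limma adjusted p = 0.0363), averaged over rows at 1.21, 0.95 and -0.17. Nkd2, the paralog of Nkd1, had the opposite sign to it, with 0.49 ± 0.18 at 24 hours (0.0930) and 0.48 at 6 hours, above 0 on all 6 arrays, and did not pass. Dvl2, a Dishevelled gene of the kind whose protein Nkd1 binds, had -0.31 (0.0848), Csnk1d -0.31 (0.0980), and Apc2 0.67 (0.104). Ctnnb1, which encodes beta-catenin, had -0.12 (0.583), a mean of rows at -0.33 and 0.08, and Axin1 had 0.04 (0.807).

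Among 11 nuclear effectors Pygo2, a beta-catenin cofactor, rose (0.40 ± 0.11, limma adjusted p = 0.0464) and the corepressor gene Tle2 fell (-0.54 ± 0.15, 0.0473) at 24 hours. These 2 calls were 18.2% of the list, against 20.6% of all features. The corepressor genes Tle1 (-1.002, 0.0508) and Tle4 (-0.40, 0.0638) did not pass. Tle5, which lacks the repressing part of that family, had 0.45 (0.0798), and Bcl9 had -0.31 (0.137).

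Of 8 planar polarity and non-canonical genes, Daam1 and Nlk rose and Vangl2 fell at 24 hours, which is 37.5%, against 20.6% of all features. Vangl2, a core membrane protein of planar polarity, also fell at 6 hours. It had -0.74, -0.54 and -1.15 on the 24-hour arrays, against -0.56, -1.15 and -0.94 on the 6-hour arrays, with the times overlapping. Its means were -0.81 ± 0.17 at 24 hours (SE, limma adjusted p = 0.0263) and -0.88 ± 0.17 at 6 hours (0.0495), and the 6-hour call was missed with each array centred on its median (0.0510). Daam1, a formin that links Dishevelled to actin, had 0.58 ± 0.13 (0.0290), and Nlk, a kinase that acts on TCF/LEF factors, 0.56 ± 0.12 (0.0254). The Nlk value is a mean of rows at 0.90 and 0.22. Vangl1 (-0.33, 0.0764), Celsr2 (-0.52, 0.107), Mapk9 (0.58, 0.109) and Mapk8 (0.23, 0.296) did not pass. Rows of opposite sign were averaged for Celsr2 (-1.42 and 0.38) and for Mapk8 (-0.15 and 0.60).

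Of 15 genes listed as beta-catenin targets besides Nkd1, Tnfrsf11b rose and Znrf3 fell at 24 hours, which is 13.3%, against 20.6% of all features. None passed at 6 hours. Tnfrsf11b encodes osteoprotegerin, the decoy receptor that holds back osteoclast formation. It had 0.15, 1.29 and 1.30 on the 24-hour arrays, against -0.01, -0.06 and 0.25 on the 6-hour arrays. Replicate 4 was as low as the 6-hour arrays. Its means were 0.91 ± 0.24 at 24 hours (SE, limma adjusted p = 0.0429) and 0.06 at 6 hours. Jun (-0.57, 0.0580), Twist1 (0.50, 0.0605) and Fosl1 (0.37, 0.120) did not pass at 24 hours. The median of the 15 was -0.13 at 24 hours, and 6 of 15 were above 0, against 50.22% of all features. The 15 means ran from -0.57 for Jun to 1.00 for Dkk1 (limma adjusted p = 0.0695), beside -1.53 for Nkd1.

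**Figure D3:**
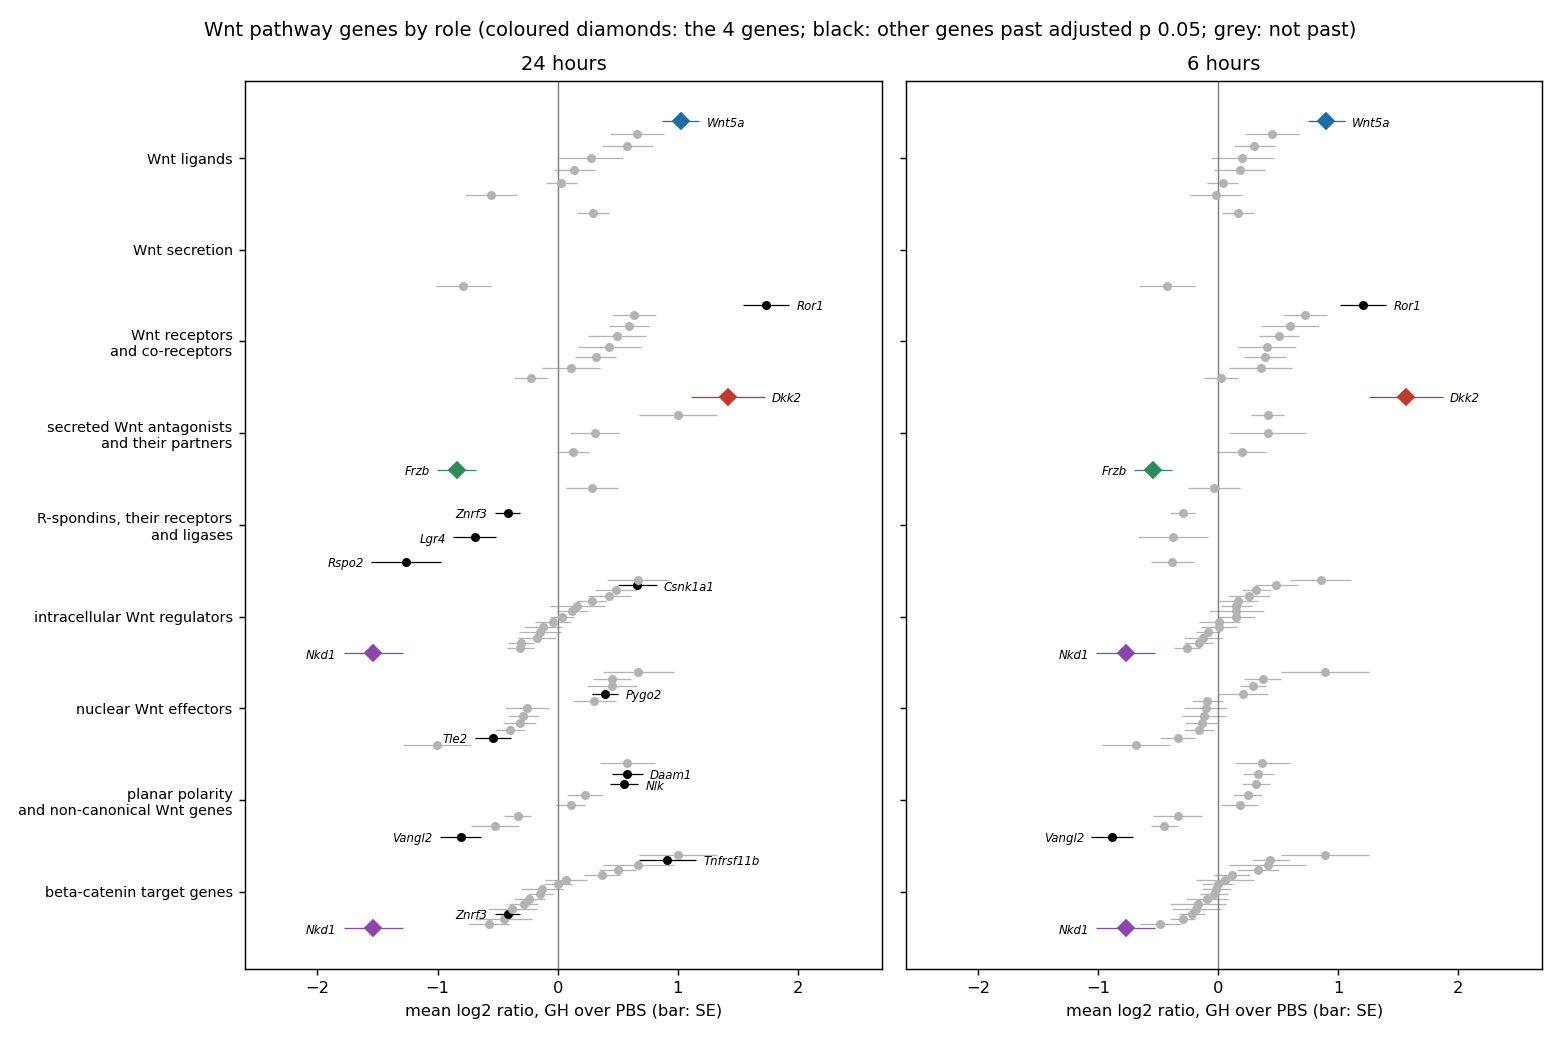
Mean log2 ratio, likely GH over PBS, of each measured Wnt pathway gene by role at 24 hours (left) and 6 hours (right); bars are limma's SE, coloured diamonds the 4 genes, black points other genes with an adjusted p under 0.05 and grey points the rest. Ror1 at 1.73 and 1.21 is the highest of the genes that passed besides the 4, and Dkk2 and Nkd1 lie at the ends of their lists at both times.

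For each of the 4 genes the named genes with the smallest root mean square (RMS) difference of log2 ratios over the 6 arrays were found among 8151 compared, as a description of similar values only. Ratios of Wnt5a were matched within an RMS of 0.11 by Ralgds, 0.13 by Gtf2f1, 0.14 by Sspo, 0.15 by Akap8 and 0.17 by Mto1. Frzb had equally close matches in Rabep1 (0.10), Smpdl3b (0.11), Hs3st2 (0.12), Slf2 (0.13) and Ccdc30 (0.13). Nkd1 was nearest to Ppargc1b (0.19), Fbxl16 (0.21), Rrad (0.23), Znrd2 (0.23) and Pgm3 (0.24). Dkk2 had no match as close: Prdm11 stood at 0.28, Smarca5 at 0.36, Spryd4 at 0.40, the T-box gene Tbx3 at 0.44 and Ksr1 at 0.45. None of the 4 genes was among the 5 nearest of another. Wnt5a was number 67 in order for Dkk2 and Dkk2 number 1158 for Wnt5a (RMS 0.68), and Frzb was number 252 for Nkd1 and Nkd1 number 2334 for Frzb (RMS 0.60).

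**Figure D4:**
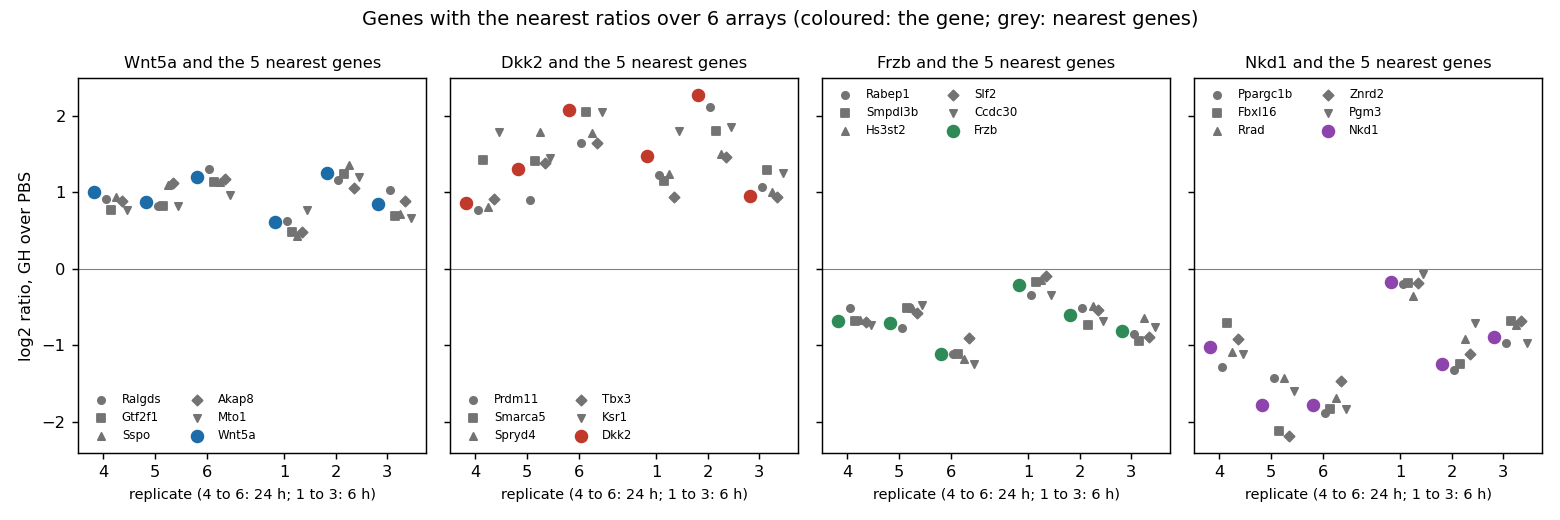
Log2 ratio, likely GH over PBS, of each of the 4 genes (coloured) and its 5 nearest named genes (grey symbols) on each array, replicates 4 to 6 at 24 hours left of replicates 1 to 3 at 6 hours. The grey symbols lie closest to Frzb and Wnt5a and spread most around Dkk2.

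Marker genes of the cell types that bone RNA can hold were read beside these ratios, since fewer cells of a type and less RNA per cell cannot be told apart in bulk samples. The measured chondrocyte markers, 2 of 12 listed, were below 0 on every array, as was Frzb, a cartilage gene. Of complete features, 33.5% had 1 sign on all 6 arrays. Hapln1, a link protein of cartilage matrix, fell at 24 hours (-0.95 ± 0.24, limma adjusted p = 0.0396), where 8.62% of all features were called lower. Col2a1, the main cartilage collagen, had -0.56 (0.106). At 6 hours they had -0.95 (0.0789) and -0.78 (0.0940). Their mean was -0.55, -0.66 and -1.06 on the 24-hour arrays, against -0.32, -0.86 and -1.40 on the 6-hour arrays, lowest on replicate 3, where Frzb had -0.81. Frzb was lowest on replicate 6, with -1.12. The part of chondrocyte RNA in the ratio of Frzb was not tested.

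The osteoblast markers measured (Col1a1, Col1a2, Ibsp and Phex, 4 of 12) were above 0 for 0 of 4 at 24 hours and for 2 of 4 at 6 hours, with means over the list from -0.39 (replicate 6) to -0.03 (replicate 4) at 24 hours, against -0.07 (replicate 1) to 0.02 (replicate 3) at 6 hours, and none passed at either time. Muscle markers were above 0 for 7 of 7 measured of 16 at both times, with list means of 1.01, 0.13 and 0.26 on the 24-hour arrays, against 0.14, 0.65 and 1.32 on the 6-hour arrays, and none passed. Periosteal and fibroblast markers were above 0 for 4 of 5 measured of 8 at 24 hours and for 5 of 5 at 6 hours, with means of 0.34 and 0.30, and none passed. Neutrophil markers were below 0 for 7 of 7 measured of 13 at both times, and 4 of them fell at 24 hours, where 50.22% of all features were above 0 and 8.62% were called lower. Their list means were -1.69, -0.65 and -0.87 on the 24-hour arrays, against 0.06, -0.66 and -1.08 on the 6-hour arrays. Osteoclast markers measured, 3 of 9, differed at 24 hours, where 20.6% of all features were called. Calcr rose (1.17, limma adjusted p = 0.0264), Mmp9 fell (-0.44, 0.0480) and Acp5 had 0.16 (0.433). The list averaged 0.30 at 24 hours and 0.40 at 6 hours, where none passed. Erythroid markers, 2 of 8, averaged 0.17 at 24 hours and -0.14 at 6 hours. The part of muscle, fibroblast and neutrophil RNA in the 4 ratios was not tested.

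**Figure D5:**
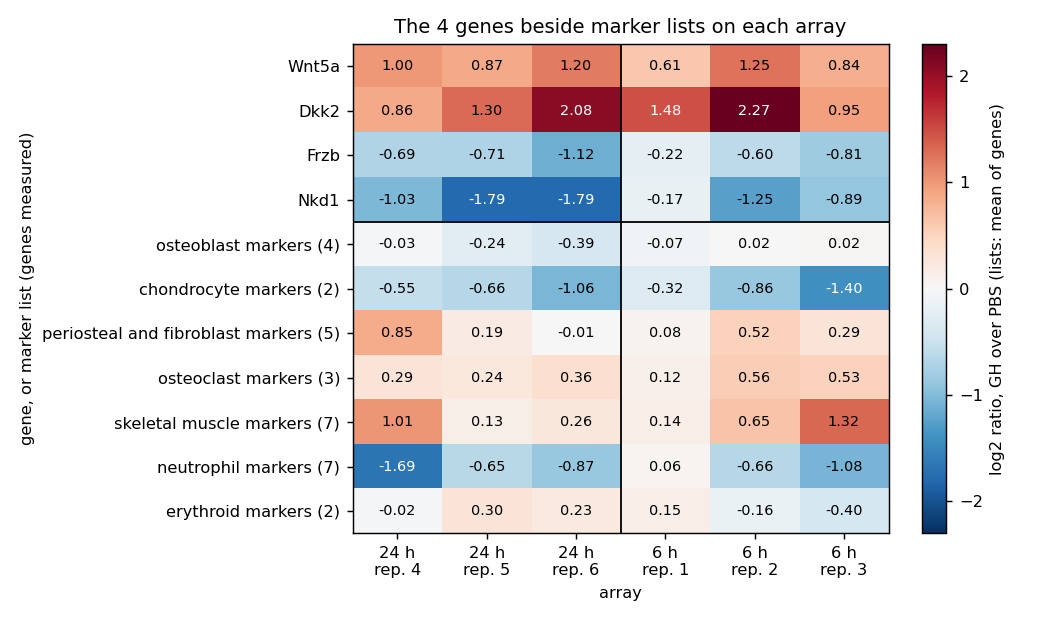
Log2 ratio, likely GH over PBS, of the 4 genes (upper rows) and the mean over each marker list (lower rows, number of genes measured in brackets) on each array, printed in each cell and coloured red above 0 and blue below 0; 24 hours is left of 6 hours. Chondrocyte markers are below 0 on all 6 arrays as are Frzb and Nkd1, and osteoblast markers lie between -0.39 and 0.02.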

How the data were processed

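The arrays compared bone RNA of GH-injected with PBS-injected lit/lit mice at 24 and 6 hours. Per the labels' protocols, RNA was amplified from an oligo(dT) primer and labelled with Cy5 (GH) or Cy3 (PBS). The authors deposited 1 log2 ratio per row and array; every value was the log2 of a ratio with 2 decimals. For normalization, the sources used here give no method. Intensities were not used, so signal over background is unknown, and precision is limited by having 3 arrays per time. That the ratios run GH over PBS is likely, going by the dyes in the labels.

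Of 21446 rows, 11813 had 1 symbol in the platform annotation, 559 several and 9074 none; 11782 of those with 1 symbol were found in the RefSeq gene table (GRCm38.p6). Rows of a symbol were averaged, and features with at least 2 values at each time were kept (16678, of which 8803 were named). limma 3.58.1 in R 4.3.3 fitted 1 mean per time to all 6 arrays (lmFit, eBayes) with two-sided tests, Benjamini-Hochberg adjustment over all features and a threshold of 0.05. The procedure was tested on simulated data with independent noise of equal spread on every array. That test says nothing about arrays of unequal spread, such as these.

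The 4 genes and all lists were chosen with earlier results of these data known. Besides the 4 genes, the text names their paralogs, the 5 genes nearest to each by RMS difference, every Wnt gene past the threshold and up to 4 others per role with the smallest p at 24 hours, besides cell type markers; Ctnnb1, Axin1 and Wnt2 were added after their values were seen. Promoter windows came from RefSeq, where 3 of the 4 genes matched. Alternatives were centring, scaling, quantile normalization, missing-value rules, the scan file prefix, single rows and leaving out each array.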

Additional observations from a re-analysis of the deposited data

Results flagged for a closer look

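Mmp9 is a matrix-degrading protease of osteoclasts and neutrophils from the osteoclast marker list. Its log2 ratio, a mean over several rows, was below 0 on all 24-hour arrays and above 0 on all 6-hour arrays. The values of the single rows are not given here. Mmp9 had -0.38, -0.27 and -0.66 on the 24-hour arrays, against 0.06, 0.11 and 0.01 on the 6-hour arrays. The share of all features whose times were separated in this way was not counted, so nothing is read from the separation. The mean of Mmp9 was -0.44 ± 0.12 at 24 hours (SE, limma adjusted p = 0.0480) and 0.06 ± 0.12 at 6 hours (0.776). It was flagged by sign alone. The 24-hour mean minus the 6-hour mean was -0.50 ± 0.17 and did not pass in limma (adjusted p = 0.982).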

How the results depend on the processing

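Each of Wnt5a, Dkk2, Frzb and Nkd1 had 1 sign on all 6 arrays, so leaving out an array could not turn a mean, and leaving out 1 of 3 arrays cannot move a mean by 1 SD; these values therefore say nothing about stability. Setting exact zeros to missing changed no value of these genes. After quantile normalization the means at 24 and 6 hours were 0.92 and 1.01 for Wnt5a, 1.29 and 1.75 for Dkk2, -0.74 and -0.57 for Frzb, and -1.33 and -0.76 for Nkd1. With 1 array left out, Wnt5a ranged from 0.94 to 1.10 at 24 hours and from 0.73 to 1.05 at 6 hours, Dkk2 from 1.08 to 1.69 and from 1.21 to 1.87, Frzb from -0.92 to -0.70 and from -0.71 to -0.41, and Nkd1 from -1.79 to -1.41 and from -1.07 to -0.53. The difference between the times ran from -0.02 to 0.30 for Wnt5a, -0.48 to 0.20 for Dkk2, -0.43 to -0.14 for Frzb and -1.02 to -0.46 for Nkd1. The counts of calls moved with the setting, and the cause was not tested. At 24 hours 3444 features (58.3% higher) passed, against 32 (25.0% higher) with a covariate for the prefix of the scan file, where the 24-hour mean is replicate 5 alone, and 0 to 4201 with 1 array left out. Further counts at 24 hours were 1984 without replicate 2, 1804 without replicate 3 and 831 without replicate 4. After scaling by the median absolute deviation 2515 passed at 24 hours (62.1% higher), and after quantile normalization 2678 (63.5% higher). At 6 hours 603 (80.6% higher) passed, against 1764 after scaling by the median absolute deviation (72.2% higher), 1990 after quantile normalization (69.1% higher), and 0 to 1501 with 1 array left out, the highest without replicate 1 (61.6% higher) and 88 without replicate 6. Between the times 2 passed with the prefix as a covariate (limma put 898 below an unadjusted p of 0.05) and 0 otherwise. Of the 68 other Wnt genes, 11 passed at 24 hours, against 4 after scaling, 5 after quantile normalization, 0 with the prefix (limma put 8 below an unadjusted p of 0.05) and 0 to 16 with 1 array left out. At 6 hours 2 passed, against 5 after scaling, 5 after quantile normalization, 1 after median centring, 1 with the prefix, 1 with each row tested alone and 0 to 4 with 1 array left out. Rows of 1 of the 4 genes could not be compared, since each has 1 row. No paired analysis was possible because the 24-hour and 6-hour arrays share no replicate number.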

Other observations

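Rows carrying the same symbol agreed no more in sign than they disagreed. Over 2059 genes with more than 1 row, the first 2 rows had a Pearson r of 0.03 across genes, which are not independent replicates, and the same sign for 50.6%. Whether the symbols given to the rows are right, or how far rows of a gene measure different transcripts, was not tested. Dkk1, Znrf3 and Csnk1a1 were singled out here after their values were seen. Row 1 of Dkk1 had 0.63, -0.07 and -0.29 on the 24-hour arrays, against 0.08, 0.16 and 0.40 on the 6-hour arrays, and row 2 had -0.10, 3.40 and 2.44, against 2.21, -0.40 and 0.00. The 2 rows of Znrf3 were each steady over the 24-hour arrays, one at 0.25, 0.26 and 0.25 and the other at -1.12, -1.12 and -1.03, so the called mean of -0.42 matched neither. The rows of Csnk1a1 averaged 1.21, 0.95 and -0.17 at 24 hours, and 0.58, 0.02 and -0.09 at 6 hours.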
